A study of Homo sapiens with 36 samples.

Results

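HCT116 cells, an established human colorectal carcinoma line, were made to lose UHRF1, DNMT1 or both proteins through an auxin-inducible degron (AID), and their transcriptomes were measured by bulk RNA-seq. The comparison described here asks whether the cells that lost both proteins changed each transcript by more or by less than the sum of the changes in the cells that lost only one. It rests on the 12 libraries of day 6, out of 36 libraries in the series: 3 of WT cells, 3 of each single line (UHRF1-AID or DNMT1-AID) and 3 of the line with both tags, UHRF1-AID/DNMT1-AID, called the double line. All 4 lines, WT included, expressed the plant F-box protein OsTIR1 from a doxycycline-inducible promoter. All were given doxycycline (2 µg/mL) with the OsTIR1 inhibitor auxinole (20 µM) for 1 day and then doxycycline with auxin (500 µM), so that the agents themselves were shared by every group. The mini-AID tag sat on endogenous UHRF1, on endogenous DNMT1 or on both. The lines were edited separately, the study worked generally with 3 clones per AID line, and the study describes its RNA-seq replicates as biological, 3 per line and time point. The labels do not say which clone a library came from. The p-values measure the spread between libraries, and differences between edited lines cannot be told apart from the loss of the proteins. Untreated libraries of day 0 were not analysed here.

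DNMT1 copies the CpG methylation pattern onto the new DNA strand after replication, and UHRF1 recognises hemimethylated CpGs and ubiquitinates histone H3 to bring DNMT1 there. Loss of either protein removes methylation as cells divide, and promoters kept silent by methylation, such as those of cancer-testis genes, can become active. UHRF1 also has partners other than DNMT1, so the effect of losing both proteins cannot be deduced from the separate losses.

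The measure used was the log2 interaction: the log2 change of UHRF1-AID/DNMT1-AID against WT minus the sum of the log2 changes of UHRF1-AID and of DNMT1-AID against WT. It is 0 where the fold changes multiply, negative where the double line lies below that product and positive where it lies above. Genes were called at a Benjamini-Hochberg adjusted p under 0.05 in the edgeR quasi-likelihood test, over 15415 protein-coding genes. Levels of single genes are given as counts per 1000000 reads (CPM) in the 3 libraries of a group, in the order of the replicate numbers. CPM are not divided by gene length, so they are compared only between groups of 1 gene. In bulk RNA, fewer cells with a transcript and less of it per cell cannot be told apart.

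The day 6 libraries held 21588262 to 31772459 counted reads. UHRF1-AID replicate 2 stood apart from the other replicates: its counts differed from those of the other UHRF1-AID libraries by a chi-square of 56.3 per degree of freedom, against 3.74 to 17.4 for all other pairs within a group, and mitochondrial genes took 1.36% of its reads against 2.97% to 4.46% in the other 11 libraries. Without that library 97 genes had a positive and 591 a negative interaction, and 512 of the 626 genes called with all libraries were called again. All 9 markers of colorectal epithelial lines were detected in all 4 groups, with a summed level of 3989 to 6247 CPM. Endothelial markers summed to 1.31 to 3.29 CPM and leukocyte markers to 1.10 to 6.95 CPM in every library. Fibroblast markers summed to 37.8 to 41.8 CPM in WT, 61.3 to 99.6 CPM in the UHRF1-AID line, 41.9 to 48.1 CPM in the DNMT1-AID line and 65.9 to 85.7 CPM in the double line, with FAP, PDGFRA, COL1A2, THY1, LUM and POSTN at 0 in WT and POSTN at 0 in every group. The part of other cell types in the results was not tested.

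The degron acts on protein, so the transcripts of the tagged genes do not check it. UHRF1 was at 127, 125 and 124 CPM in WT, 139, 152 and 158 in the UHRF1-AID line, 145, 146 and 122 in the DNMT1-AID line and 86.3, 146 and 189 in the double line. DNMT1 was at 227, 222 and 231 CPM in WT and 231, 210 and 233 in the UHRF1-AID line but at 94.1, 88.5 and 79.2 in the DNMT1-AID line and 79.4, 80.3 and 54.4 in the double line. The DNMT1 transcript was thus lower in both lines that carry a tagged DNMT1, without overlap with the other lines, while the UHRF1 transcript was slightly higher in the UHRF1-AID line than in WT, without overlap, and overlapped WT in the other lines, varying most in the double line. The interaction of UHRF1 was -0.23 ± 0.35 and that of DNMT1 -0.27 ± 0.29 (log2 ± SE, n = 3 per group; edgeR adjusted p = 0.813 and 0.71), and neither was called.

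The double line most often fell short of the sum. At day 6, 552 genes had a negative and 74 a positive interaction, that is 3.58% and 0.48% of the genes tested (4.06% in all), and 278 of the negative and 38 of the positive ones exceeded 1 in absolute log2 (1.8% and 0.247% of the genes tested). Of the 552 negative genes, 548 had single-degron changes that summed to above 0, and the double line lay below that sum. Only TFPI, CPOX, PDCD4 and ENSG00000286239 lay below a negative sum, which was close to 0 for PDCD4 and ENSG00000286239. Not every negative gene rose in the double line. In 28 of the 552 neither single line was called against WT and the double line was called lower than WT. Of the 74 positive genes, 70 lay above a negative sum, and RGPD2, NELL2, GPR176 and H2AB2 rose more than a positive sum. The double line was not below WT in all 70. In OLFM1 it was called higher than WT, by 0.91 in log2 (edgeR adjusted p = 0.014). Over the negative genes the median log2 change was 0.94 in the UHRF1-AID line, 0.84 in the DNMT1-AID line and 0.77 in the double line, against a median sum of 1.64. Over all genes tested the median interaction was -0.06 and the median sum -0.007. These calls used the same WT libraries in all 3 changes, and a WT value that is low or high by chance enters both single changes with the same sign. The single-line libraries enter the sum and, with the opposite sign, the interaction. Genes chosen by a negative interaction thus tend to a positive sum, and the reverse, so the 548 and the 70 are a description.

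The split between directions depended on the scaling and on the libraries. Scaling by library size only gave 120 positive and 328 negative genes, 73.2% negative against 88.2%. DESeq2 gave 179 and 548, or 75.4% negative. The number of positive genes fell to 39, 49 and 39 without WT replicate 1, 2 and 3, to 41 without UHRF1-AID replicate 3, and to 47 and 37 without DNMT1-AID replicate 1 and 3. The number of negative genes fell to 351 without WT replicate 1 and to 366 without WT replicate 3. In all 12 fits that left out 1 library, 283 of the negative and 19 of the positive genes were called again.

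**Figure D1:**
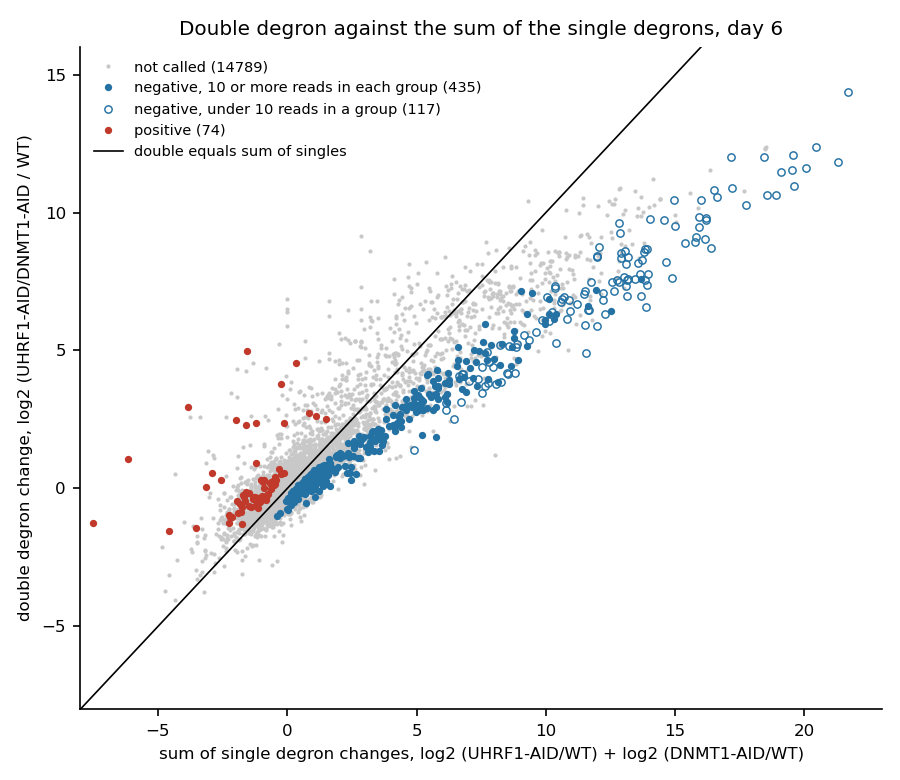
Each point is 1 of 15415 genes at day 6, with the sum of both single-degron log2 changes against WT on the x axis and the log2 change of the double line against WT on the y axis. The line marks equality; the 552 negative genes lie below it, 117 of them with under 10 reads in at least 1 group (open circles), and the 74 positive genes lie above it.

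Against each single line directly, the negative genes took different courses. In 235 of the 552 the double line was called different from neither single line, in 92 it was higher than DNMT1-AID and not called against UHRF1-AID, and in 73 it was higher than both. In 6 it was higher than UHRF1-AID and not called against DNMT1-AID. In 62 it was lower than both, in 38 lower than UHRF1-AID only and in 46 lower than DNMT1-AID only. By single libraries, the 548 genes below a positive sum also split. All 3 double-line libraries lay above all 6 single-line libraries in 108, or 19.7%, against 8.22% of all genes tested. They lay below all 6 in 102, or 18.6%, against 8.52%, and the libraries overlapped in 338, or 61.7%, against 83.3%. Both single lines were called higher than WT in 406 of the negative genes, of which 351 were also called higher in the double line and 55 were not called there. High values in the single lines lower the interaction by its definition. The counts of calls in this paragraph are thus a description and were not set against all genes tested.

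The genes furthest below the sum were near silent in WT and active in all 3 degron lines. The 8 with the lowest interaction among genes that had at least 10 reads in every group and were called in every leave-one-out fit were COL6A3, NR5A1, PTPN7, SDK2, LAPTM5, TRIM55, SEMA4A and TNFRSF1B. Those furthest above the sum, by the same rule, were ADAMTS2, OLFM1, DKK1, RIOX1, SOCS2, ATP8B4, REEP1 and SLC27A2, which were expressed in WT. The promoter sequences of the first 3 of each direction are shown to let the CpG content of both kinds be read; each runs from 250 bases before to 50 bases after the gene start (RefSeq, GRCh38.p14), 5′ to 3′ on the gene's strand, with every CpG in capitals.
COL6A3: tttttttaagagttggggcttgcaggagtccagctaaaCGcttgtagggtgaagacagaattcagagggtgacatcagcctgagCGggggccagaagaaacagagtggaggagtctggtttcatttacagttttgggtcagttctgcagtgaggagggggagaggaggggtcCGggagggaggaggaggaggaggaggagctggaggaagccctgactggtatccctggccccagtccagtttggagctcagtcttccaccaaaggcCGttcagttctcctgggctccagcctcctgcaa
NR5A1: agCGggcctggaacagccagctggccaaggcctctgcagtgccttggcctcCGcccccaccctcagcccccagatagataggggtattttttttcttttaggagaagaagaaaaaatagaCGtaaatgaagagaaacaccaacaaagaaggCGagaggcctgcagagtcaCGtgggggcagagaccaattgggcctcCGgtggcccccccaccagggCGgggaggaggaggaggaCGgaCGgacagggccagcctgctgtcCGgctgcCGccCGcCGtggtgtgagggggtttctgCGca
PTPN7: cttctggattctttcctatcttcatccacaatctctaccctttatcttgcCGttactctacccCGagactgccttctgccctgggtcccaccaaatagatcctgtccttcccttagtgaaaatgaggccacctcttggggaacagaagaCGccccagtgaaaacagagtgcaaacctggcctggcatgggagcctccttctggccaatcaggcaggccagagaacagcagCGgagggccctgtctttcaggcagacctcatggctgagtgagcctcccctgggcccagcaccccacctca
ADAMTS2: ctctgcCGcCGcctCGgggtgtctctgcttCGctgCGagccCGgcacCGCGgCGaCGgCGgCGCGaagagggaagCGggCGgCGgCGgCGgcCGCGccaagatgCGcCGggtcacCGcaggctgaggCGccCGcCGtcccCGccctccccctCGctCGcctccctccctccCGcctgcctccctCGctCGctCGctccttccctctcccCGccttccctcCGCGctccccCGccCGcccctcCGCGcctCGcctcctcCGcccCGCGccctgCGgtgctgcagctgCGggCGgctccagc
OLFM1: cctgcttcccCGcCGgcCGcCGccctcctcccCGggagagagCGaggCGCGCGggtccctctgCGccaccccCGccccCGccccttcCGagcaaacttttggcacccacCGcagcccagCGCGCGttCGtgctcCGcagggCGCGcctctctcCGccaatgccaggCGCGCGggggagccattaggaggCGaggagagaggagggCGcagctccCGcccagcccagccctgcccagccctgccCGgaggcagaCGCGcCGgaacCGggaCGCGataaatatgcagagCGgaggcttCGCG
DKK1: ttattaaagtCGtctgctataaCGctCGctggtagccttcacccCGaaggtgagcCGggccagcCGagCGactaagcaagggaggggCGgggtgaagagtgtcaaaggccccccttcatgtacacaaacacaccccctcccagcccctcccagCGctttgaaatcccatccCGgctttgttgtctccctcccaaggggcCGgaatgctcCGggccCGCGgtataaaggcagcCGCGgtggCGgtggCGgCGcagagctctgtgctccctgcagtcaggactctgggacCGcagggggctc

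The COL6A3 window at chr2:237414115-237414414 holds 4 CpGs, the NR5A1 window at chr9:124507350-124507649 14 and the PTPN7 window at chr1:202159405-202159704 4, all on the minus strand. The ADAMTS2 window at chr5:179345412-179345711 on the minus strand holds 47, the OLFM1 window at chr9:135075255-135075554 on the plus strand 38 and the DKK1 window at chr10:52314031-52314330 on the plus strand 20. Observed over expected CpG was 0.18, 0.50 and 0.18 in the first 3 and 1.04, 0.92 and 0.66 in the last 3. Over all called genes the contrast was smaller. Promoters were matched for 401 of the 552 negative genes, with a median of 22 CpGs and 61.1% at an observed over expected ratio of at least 0.6, and for 52 of the 74 positive genes, with a median of 27.5 CpGs and 75% at that ratio. The 11938 matched promoters of all genes tested had a median of 25 CpGs and 78.0% at that ratio. Among the negative genes whose double-line libraries all exceeded the single-line ones, 71 promoters were matched, with a median of 12 CpGs and 42.3% at that ratio. These are descriptions of the letters and were not tested.

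COL6A3, a chain of collagen VI, was at 0.23, 0.175 and 0.412 CPM in WT, 29.4, 24.2 and 18.8 in the UHRF1-AID line, 15.9, 22.6 and 21.3 in the DNMT1-AID line and 21.2, 23.8 and 28.3 in the double line. The 3 degron lines overlapped one another and none overlapped WT. Its log2 changes were 6.40 in the UHRF1-AID line, 6.12 in the DNMT1-AID line and 6.42 in the double line, so the interaction was -6.10 ± 0.40 (edgeR adjusted p = 5.38e-13). NR5A1, the orphan nuclear receptor of steroidogenic tissues, was at 0.23, 0.0877 and 0.0687 CPM in WT, 21.2, 25.4 and 29.9 in the UHRF1-AID line, 8.89, 8.35 and 10.3 in the DNMT1-AID line and 25.7, 22.1 and 29.5 in the double line. Here the double line overlapped UHRF1-AID, and DNMT1-AID lay below both (interaction -6.09 ± 0.41, edgeR adjusted p = 2.60e-12). PTPN7, a tyrosine phosphatase of haematopoietic cells, was at 0.268, 0.263 and 0.378 CPM in WT, 19.3, 20.1 and 27 in the UHRF1-AID line, 13.8, 15.6 and 12.6 in the DNMT1-AID line and 30.3, 25.6 and 35.5 in the double line (interaction -5.03 ± 0.44, edgeR adjusted p = 3.85e-09). The highest UHRF1-AID library exceeded the lowest double-line library.

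In SDK2 and TNFRSF1B the double line did go beyond both single lines, but by far less than the product. SDK2, an adhesion molecule of the immunoglobulin superfamily, was at 0.23, 0.351 and 0.309 CPM in WT, 26.3, 27.7 and 35.5 in the UHRF1-AID line, 9.62, 12.7 and 13.7 in the DNMT1-AID line and 46.3, 39 and 47 in the double line (interaction -4.75 ± 0.32, edgeR adjusted p = 5.38e-13). TNFRSF1B, which encodes TNF receptor 2, was at 0.613, 0.57 and 0.618 CPM in WT, 23.4, 31.9 and 33.7 in the UHRF1-AID line, 16.4, 14.4 and 16.2 in the DNMT1-AID line and 48.1, 42.4 and 37.8 in the double line (interaction -4.16 ± 0.32, edgeR adjusted p = 4.89e-11). In SDK2 and TNFRSF1B all 3 double-line libraries lay above all 6 single-line libraries. For TNFRSF1B the double line exceeded UHRF1-AID by 0.52 in log2 (95% interval 0.18 to 0.87) and DNMT1-AID by 1.45 (95% interval 1.09 to 1.81).

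LAPTM5, a lysosomal membrane protein of leukocytes, was at 0, 0.175 and 0.206 CPM in WT, 5.38, 4.43 and 5.88 in the UHRF1-AID line, 1.33, 2.32 and 1.35 in the DNMT1-AID line and 3.95, 2.34 and 3.72 in the double line (interaction -4.29 ± 0.63, edgeR adjusted p = 2.06e-05). TRIM55, a muscle sarcomere-associated ubiquitin ligase, was at 0.46, 0.263 and 0.412, 6.03, 3.89 and 5.0, 7.69, 10.9 and 7.17 and 4.93, 3.5 and 8.81 CPM in the same order of lines (interaction -4.27 ± 0.49, edgeR adjusted p = 2.92e-07). SEMA4A, a membrane semaphorin, was at 0.345, 0.219 and 0.137, 3.03, 6.52 and 4.91, 5.49, 3.54 and 4.74 and 5.26, 5.48 and 4.49 CPM (interaction -4.21 ± 0.52, edgeR adjusted p = 8.36e-07). LAPTM5 was highest in the UHRF1-AID line, without overlap with the double line. The double line overlapped both single lines in TRIM55 and in SEMA4A.

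**Figure D2:**
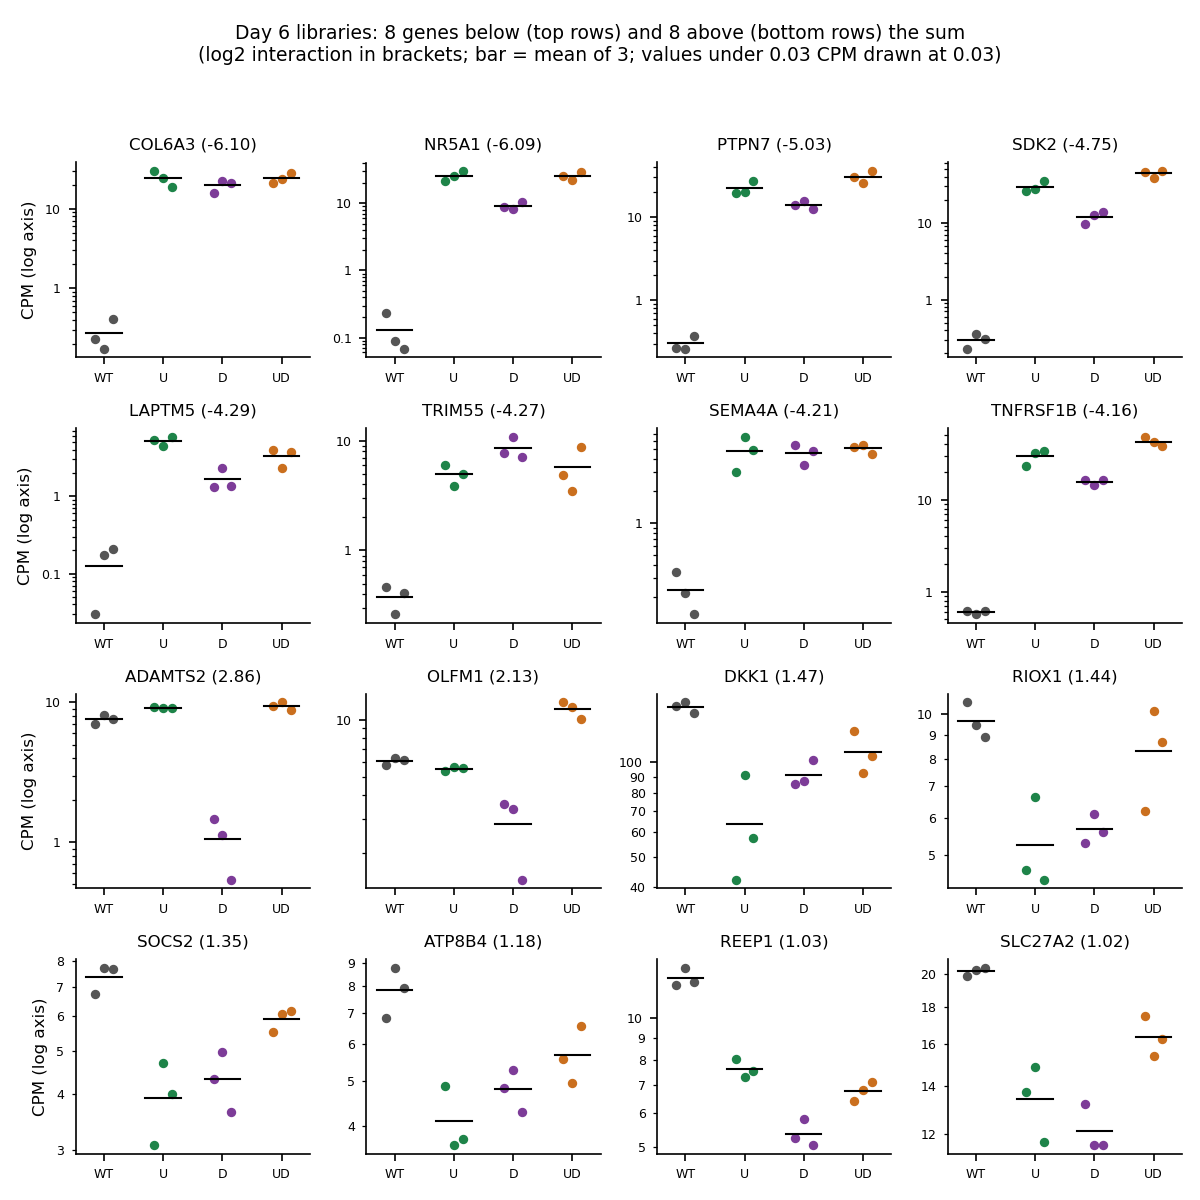
CPM of 16 genes in the 12 day 6 libraries on log axes (WT; U, UHRF1-AID; D, DNMT1-AID; UD, UHRF1-AID/DNMT1-AID), 1 point per library and a bar at the mean of 3, with values under 0.03 CPM drawn at 0.03. In the upper 8 genes WT lies far below the degron lines, whose means differ less from one another, in fold, than from WT. In the lower 8 WT is high and at least 1 single line lies below the double line.

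Cancer-testis genes of the X chromosome, which are silenced by promoter methylation in somatic cells, were most often highest in the double line and yet below the product of the single changes. In 37 of the 46 tested all 3 double-line libraries lay above all 6 single-line libraries, against 8.22% of all genes. On the log2 scale 12 had a negative and 0 a positive interaction, against 3.58% and 0.48% of all genes, whereas on the linear scale 22 were called above the sum and 0 below, against 1.38% and 1.64%. The median log2 interaction was -2.35 against -0.06 over all genes, but 35 of the 46 had under 10 reads in at least 1 group, so that the WT level and with it the product was poorly known, and the fitted value depends on the prior count where WT had no read. Among the others, with at least 10 reads in every group, the median was -0.10. MAGEA4, a melanoma antigen, was at 0.0383, 0.0877 and 0.0687 CPM in WT, 73.7, 205 and 165 in the UHRF1-AID line, 20.0, 30.8 and 22 in the DNMT1-AID line and 55.4, 263 and 296 in the double line. UHRF1-AID and the double line overlapped, and DNMT1-AID lay below both. MAGEA9 and MAGEA9B are near-identical copies between which reads may be split. MAGEA9 was at 0.0383, 0 and 0.0687 CPM in WT, 41.2, 54.1 and 46.8 in the UHRF1-AID line, 16.9, 22.5 and 20.0 in the DNMT1-AID line and 71.5, 60.8 and 76.5 in the double line, and MAGEA9B at 35.9, 46.6 and 42.1, 15.4, 20.4 and 18.3 and 63.4, 53.4 and 69.2 in the 3 degron lines. TKTL1, a transketolase-like enzyme, had no read in WT and was at 6.9, 13 and 4.36 CPM in the UHRF1-AID line, 10.5, 12.3 and 10.8 in the DNMT1-AID line and 95.6, 89.4 and 146 in the double line. The double line exceeded every single-line library of MAGEA9, MAGEA9B and TKTL1. The negative log2 interaction of TKTL1 was called in 3 of the 12 leave-one-out fits.

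PNMA5, an X-linked paraneoplastic antigen gene, was at 0, 0.0439 and 0 CPM in WT, 13.8, 18.5 and 12.9 in the UHRF1-AID line, 2.03, 4.59 and 3.07 in the DNMT1-AID line and 75.6, 62.8 and 87.2 in the double line. RAB34, a GTPase of the ciliary and Golgi compartments, was at 0.0383, 0.175 and 0.137, 13.4, 19.7 and 20.6, 4.86, 5.16 and 8.57 and 35.4, 33.7 and 47.9 CPM in the same order. In both the double line was above all single-line libraries although the log2 interaction was called negative, for PNMA5 in 10 of the 12 leave-one-out fits. Of the 552 negative genes, 117 had under 10 reads in a group, as these did, and 435 had at least 10 in each. Among the 435 the median single changes were 0.58 and 0.49, the median sum 1.04 and the median double change 0.38. Among 29 autosomal germ cell genes, DCAF4L1 and TDRD1 were called negative and 0 positive, against 3.58% and 0.48% of all genes, while the median interaction was 0.25. On the linear scale 10 were called above the sum and 0 below, against 1.38% and 1.64% of all genes. Of the 29, 13 had under 10 reads in a group.

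Interferon-stimulated genes split into a small strongly derepressed set, which fell short of the sum, and a larger set near the sum. Of 58 tested, 7 had a negative and 0 a positive interaction (edgeR; 4.06% of all genes were called), and the median interaction was 0.01. The median log2 change was 0.29 in the UHRF1-AID line, 0.38 in the DNMT1-AID line and 0.85 in the double line. In 21 of the 58 all 3 double-line libraries lay above all 6 single-line libraries, against 8.22% of all genes. The 7 were BST2 (tetherin), IFI27, IFITM1, OAS2, XAF1, DHX58 and TRIM22.

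BST2 was at 77.8, 84.7 and 84.1 CPM in WT, 409, 659 and 357 in the UHRF1-AID line, 564, 545 and 517 in the DNMT1-AID line and 613, 638 and 495 in the double line, so the 3 degron lines overlapped (interaction -2.43 ± 0.25, edgeR adjusted p = 1.04e-07). IFI27, a mitochondrial interferon-induced protein, was at 99, 112 and 104, 547, 707 and 484, 736, 722 and 956 and 738, 873 and 735 CPM in the same order, and the double line overlapped DNMT1-AID but lay above UHRF1-AID (interaction -2.51 ± 0.41, edgeR adjusted p = 3.28e-04). OAS2, a sensor of double-stranded RNA, was at 1.49, 1.75 and 1.1, 37.8, 59.6 and 31, 52.6, 48.6 and 44 and 120, 87.9 and 59.6 CPM, with the lowest double-line library level with the highest single-line one (interaction -4.02 ± 0.44, edgeR adjusted p = 9.02e-07). DHX58, the RIG-I-like helicase LGP2, was at 5.86, 6.49 and 8.21, 38.3, 44.3 and 40.2, 43.6, 40.1 and 42.9 and 60.1, 60.9 and 49 CPM (interaction -2.15 ± 0.20, edgeR adjusted p = 3.85e-09). In these 4 genes each single line alone came within 1.06 in log2 of the double line.

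IFITM1, an interferon-induced transmembrane protein that blocks virus entry, had the smallest shortfall of the 7. It was at 137, 143 and 140 CPM in WT, 811, 801 and 699 in the UHRF1-AID line, 904, 618 and 776 in the DNMT1-AID line and 1871, 1713 and 1272 in the double line, which lay above all single-line libraries (interaction -1.38 ± 0.28, edgeR adjusted p = 0.00228). XAF1, a pro-apoptotic XIAP-associated factor, had an interaction of -3.09 ± 0.30 and TRIM22, an antiviral ubiquitin ligase, one of -2.21 ± 0.56 (edgeR adjusted p = 7.89e-08 and 0.0176). TRIM22 was called in 8 of the 12 leave-one-out fits and the other 6 genes in all 12.

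The promoter window of IFI27 at chr14:94110486-94110785 on the plus strand, shown because it carries the response-element letters GAAA, any 2 bases, GAAA, searched on both strands (matches in capitals), is as follows (RefSeq, GRCh38.p14).
IFI27: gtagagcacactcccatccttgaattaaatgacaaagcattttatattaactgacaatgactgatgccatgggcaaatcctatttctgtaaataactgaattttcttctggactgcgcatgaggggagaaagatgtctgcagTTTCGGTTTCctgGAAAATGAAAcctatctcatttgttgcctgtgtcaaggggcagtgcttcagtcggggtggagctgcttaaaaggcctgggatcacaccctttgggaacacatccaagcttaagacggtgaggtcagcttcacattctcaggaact

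These letters or their reverse complement stood in 63.8% of the 47 matched promoters of the interferon-stimulated list and in 2.86% of all matched promoters. It stood in 4.24% of the promoters of the negative genes and in 1 of the 52 of the positive genes. CACGTG was found in 8.73% of the negative and 3.85% of the positive genes' promoters against 10.1% of all, TTTCCCGC in 2.00% and 1.92% against 2.56%, and CCGGAAG in 10.2% and 7.69% against 17.5%, on both strands. A match is a description of the sequence and not of a bound site.

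The other interferon-stimulated genes lay near the sum or could not be separated from it. ISG15, a ubiquitin-like modifier, was at 854, 981 and 913 CPM in WT, 1079, 1709 and 1104 in the UHRF1-AID line, 1374, 1386 and 1424 in the DNMT1-AID line and 1643, 1804 and 1694 in the double line, with an interaction of -0.20 ± 0.32 (edgeR adjusted p = 0.822). IRF7, the transcription factor that amplifies interferon production, was at 152, 169 and 162, 226, 305 and 224, 252, 229 and 249 and 323, 391 and 335 CPM, with an interaction of -0.12 ± 0.20 (edgeR adjusted p = 0.825). In IRF7 all 3 double-line libraries lay above the single-line ones, while in ISG15 UHRF1-AID replicate 2 overlapped them. OASL and OAS1, of the oligoadenylate synthetase family, had interactions of 0.49 ± 0.30 and 0.56 ± 0.43, above 0 but within 2 SE of it (edgeR adjusted p = 0.46 and 0.576). MX1, a dynamin-like antiviral GTPase, changed as much as the genes called (5.01 in the UHRF1-AID line, 1.98 in the DNMT1-AID line, 6.38 in the double line) but had an interaction of -0.61 ± 0.44. The lambda interferon genes IFNL1 and IFNL2 had interactions of 0.77 ± 0.77 and -0.26 ± 0.75, neither called (edgeR adjusted p = 0.687 and 0.916), at no more than 3.11 CPM in any library.

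**Figure D3:**
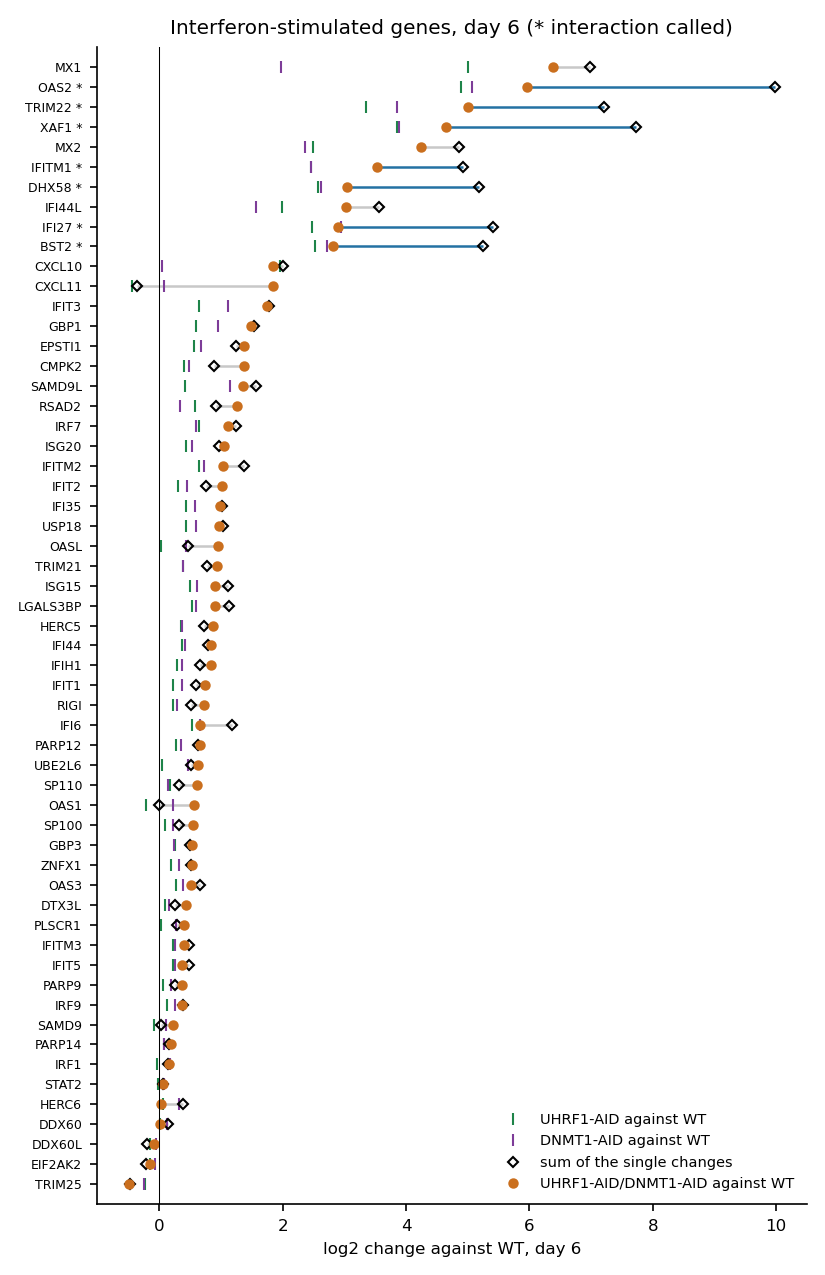
For each of 57 of the interferon-stimulated genes, ticks give the day 6 log2 change of each single line against WT, the open diamond their sum and the filled circle the double line. The 7 genes marked with an asterisk, with interactions from -4.02 to -1.38, have circles well to the left of the diamonds; for most others circle and diamond lie close together.

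Sensors and antigen presentation gave 3 and 2 calls, all negative. Of 18 genes of cytosolic nucleic acid sensing, DHX58, IRF3 and SAMHD1 were negative and 0 positive, against 3.58% and 0.48% of all genes. IRF3, the transcription factor downstream of the sensors, had an interaction of -0.40 ± 0.10 (edgeR adjusted p = 0.0133), and its double-line libraries at 67.6, 72.8 and 72.2 CPM lay between those of WT (61, 61.9 and 64.4) and of DNMT1-AID (77.1, 76.5 and 77.5). STING1, the adaptor of cyclic dinucleotide signalling, had an interaction of -0.58 ± 0.29 and was not called (edgeR adjusted p = 0.309). CGAS, the cytosolic DNA sensor, was at 0.0767, 0.0439 and 0.0343 CPM in WT, 0.578, 0.791 and 0.151 in the UHRF1-AID line, 0.266, 0.612 and 0.271 in the DNMT1-AID line and 3.13, 4.11 and 5.4 in the double line. The double line lay above every other library, but with 4 reads in all of WT the log2 interaction of 0.29 ± 1.68 could not be resolved (edgeR adjusted p = 0.965). All 22 genes of MHC class I presentation had interactions below 0, against 59.1% of all genes, with a median of -0.30. Of the 22, 2 were called negative, against 3.58% of all genes. PSMB8, an immunoproteasome subunit, was one of them, at -2.00 ± 0.33 (edgeR adjusted p = 2.58e-04). PSMB8 was at 2.38, 2.85 and 2.06 CPM in WT, 15.8, 31.5 and 15.7 in the UHRF1-AID line, 18.3, 22.2 and 20.7 in the DNMT1-AID line and 49.1, 47.4 and 36 in the double line, above all single-line libraries. APOBEC3G, a cytidine deaminase that restricts retroviruses, was the 1 gene called of 7 in its family (-2.27 ± 0.46, edgeR adjusted p = 0.00191). Of all genes 4.06% were called, and counts this small are not read as a result about these lists.

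Secretory phenotype genes, the cytokines, proteases and receptors that senescent cells release or display, fell short of the sum in 8 of 40 and exceeded it in 0, against 3.58% and 0.48% of all genes, with a median of -0.15 over the list. TNFRSF1B, described above, was one of the 8. On the linear scale 2 of the 40 were called above the sum and 2 below, against 1.38% and 1.64% of all genes. ICAM1, an adhesion molecule, was at 0.115, 0.482 and 0.275 CPM in WT, 9.0, 8.35 and 12.1 in the UHRF1-AID line, 2.83, 3.84 and 4.33 in the DNMT1-AID line and 13.5, 14.2 and 17.9 in the double line, above all single-line libraries (interaction -3.03 ± 0.40, edgeR adjusted p = 4.00e-06). IL32, a pro-inflammatory cytokine, was at 0.46, 0.175 and 0.172, 2.96, 5.13 and 4.3, 1.9, 1.4 and 2.03 and 9.34, 4.57 and 6.78 CPM, and the double line overlapped UHRF1-AID (interaction -1.97 ± 0.52, edgeR adjusted p = 0.0211). IL32 was called in 9 of the 12 leave-one-out fits. The collagenases differed from each other.

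MMP1 was at 0, 0 and 0.0343 CPM in WT, 10.8, 2.21 and 5.51 in the UHRF1-AID line, 1.16, 0.568 and 0.632 in the DNMT1-AID line and 3.88, 2.22 and 2.85 in the double line, within the range of UHRF1-AID. MMP13 had no read in WT and was at 1.37, 2.63 and 2.03 CPM in the UHRF1-AID line, 1.3, 1.88 and 0.903 in the DNMT1-AID line and 9.56, 7.31 and 6.87 in the double line, above every single-line library. Both had called negative log2 interactions, with 1 and 0 reads in the 3 WT libraries together (edgeR adjusted p = 7.56e-04 and 0.00299). IGFBP3, an insulin-like growth factor carrier, was at 0.0767, 0.307 and 0.103, 6.57, 2.12 and 7.54, 1.56, 0.743 and 0.677 and 2.45, 1.83 and 3.37 CPM (interaction -3.79 ± 0.96, edgeR adjusted p = 0.0197), and was also called in 9 of the 12 leave-one-out fits. MMP14, a membrane-anchored metalloproteinase, was at 30.1, 31.5 and 31.8 CPM in WT, 50.4, 33.4 and 45.8 in the UHRF1-AID line, 44.8, 48.6 and 48.4 in the DNMT1-AID line and 29.6, 27.7 and 35.6 in the double line. It rose in each single line and in the double line overlapped WT (interaction -1.08 ± 0.21, edgeR adjusted p = 0.00166). IGFBP4, with no read in WT (edgeR adjusted p = 0.0909), and CCL5 (-0.27 ± 0.62, edgeR adjusted p = 0.892) were not called, nor was any of 17 cell-cycle inhibitors and senescence markers (edgeR). Among these, CDKN1A, which encodes p21, was at -0.24 ± 0.18 and CDKN2A at -0.43 ± 0.16 (edgeR adjusted p = 0.554 and 0.143).

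Among expressed genes, several p53 targets rose in the single lines and lay below the sum in the double line. Of 28 p53 targets, 4 were negative and 0 positive, against 3.58% and 0.48% of all genes, and 26 had an interaction below 0, against 59.1% of all genes, with a median of -0.26. The list's median log2 change was 0.26 in the UHRF1-AID line, 0.39 in the DNMT1-AID line and 0.32 in the double line, so the list as a whole did not stand at the WT level there. BBC3, the pro-apoptotic BH3 protein PUMA, was at 44, 56.8 and 55.9 CPM in WT, 85, 55.3 and 84.2 in the UHRF1-AID line, 73.2, 70.3 and 88 in the DNMT1-AID line and 42.5, 56.9 and 54.7 in the double line (interaction -1.10 ± 0.22, edgeR adjusted p = 0.00218). TP53INP1, a stress-induced nuclear protein, was at 36.8, 35 and 39, 54.1, 45.3 and 53.1, 47.9, 44.9 and 53.5 and 41.2, 39 and 44.1 CPM in the same order (interaction -0.70 ± 0.13, edgeR adjusted p = 5.83e-04). The double line lay below all 6 single-line libraries of TP53INP1 and overlapped WT in BBC3. For TP53INP1 it was called lower than UHRF1-AID but not than DNMT1-AID (edgeR adjusted p = 0.029 and 0.0556). In BBC3, UHRF1-AID replicate 2, at 55.3 CPM, also lay within the ranges of WT and of the double line. FDXR, a mitochondrial ferredoxin reductase, and CCNG1, cyclin G1, had interactions of -0.69 ± 0.17 and -0.44 ± 0.13 (edgeR adjusted p = 0.0115 and 0.0446), and they were called in 10 and 2 of the 12 leave-one-out fits. FDXR was still called higher than WT in the double line, by 0.33 in log2 (edgeR adjusted p = 0.0258). For FDXR and CCNG1 the double line was called different from neither single line. Against UHRF1-AID the edgeR adjusted p was 0.489 and 0.272, and against DNMT1-AID 0.188 and 0.285.

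A rise in both single lines with a double line at the WT level was seen for AHRR, the repressor of the aryl hydrocarbon receptor, at 71.1, 71.1 and 76 CPM in WT, 109, 83.8 and 104 in the UHRF1-AID line, 102, 90.4 and 94.1 in the DNMT1-AID line and 66.4, 73 and 75.8 in the double line (interaction -0.86 ± 0.16, edgeR adjusted p = 5.80e-04). It was the 1 gene called of 12 aryl hydrocarbon receptor targets, against 4.06% of all genes. SREBF1, the transcription factor of lipid synthesis, was at 785, 861 and 838, 1063, 1154 and 1142, 1089, 992 and 1069 and 842, 925 and 821 CPM (interaction -0.72 ± 0.18, edgeR adjusted p = 0.0121). In SREBF1 the double line lay below all single-line libraries and overlapped WT, and its rise in DNMT1-AID alone was not called (edgeR adjusted p = 0.0631). DDIT4, an inhibitor of mTORC1 signalling, had an interaction of -0.72 ± 0.16 (edgeR adjusted p = 0.00422), was called higher than WT only in the DNMT1-AID line and overlapped WT in the double line. The lysosomal genes CTSB (cathepsin B) and PSAP (prosaposin), in contrast, were called higher than WT in all 3 degron lines, with interactions of -0.69 ± 0.12 and -0.53 ± 0.11 (edgeR adjusted p = 2.05e-04 and 0.00212). PSAP was at 960, 973 and 976 CPM in WT, 1427, 1526 and 1396 in the UHRF1-AID line, 1267, 1266 and 1316 in the DNMT1-AID line and 1309, 1338 and 1350 in the double line. Of 25 cholesterol synthesis genes, 3 were negative, of 32 lysosomal genes 3, and of 22 integrated stress response genes 2, with 0 positive in each list, against 3.58% negative among all genes. Counts this small are not read as a result about these lists.

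The 4 genes below a negative sum were expressed in every line. The sum was -0.39 in log2 for CPOX and -0.30 for TFPI, but only -0.04 for PDCD4 and -0.02 for ENSG00000286239. In PDCD4 and ENSG00000286239 neither single line was called against WT. CPOX, an enzyme of haem synthesis, was at 592, 598 and 589 CPM in WT, 504, 477 and 481 in the UHRF1-AID line, 563, 584 and 501 in the DNMT1-AID line and 281, 319 and 284 in the double line, which lay below all other libraries (interaction -0.62 ± 0.14, edgeR adjusted p = 0.00559). TFPI, an inhibitor of the coagulation protease cascade, had an interaction of -0.58 ± 0.15 and PDCD4, an inhibitor of translation, one of -0.43 ± 0.11 (edgeR adjusted p = 0.0154 and 0.0162). ENSG00000286239, a gene with no symbol, had -0.73 ± 0.17 (edgeR adjusted p = 0.00749). TFPI was called in 8 and PDCD4 in 9 of the 12 leave-one-out fits, and the other pair in all 12.

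Among the 8 genes furthest above the sum, ADAMTS2 and OLFM1 were low in DNMT1-AID alone. ADAMTS2, which trims procollagen, was at 7.05, 8.2 and 7.62 CPM in WT, 9.32, 9.14 and 9.06 in the UHRF1-AID line, 1.46, 1.14 and 0.542 in the DNMT1-AID line and 9.37, 10.0 and 8.86 in the double line (interaction 2.86 ± 0.41, edgeR adjusted p = 2.05e-05). OLFM1, a secreted olfactomedin, was at 5.75, 6.27 and 6.15, 5.35, 5.66 and 5.54, 3.59, 3.41 and 1.44 and 12.3, 11.7 and 10.1 CPM in the same order (interaction 2.13 ± 0.44, edgeR adjusted p = 0.00256). The double line overlapped UHRF1-AID and lay above WT for ADAMTS2, and lay above every other library for OLFM1. MORC3, a nuclear ATPase of silenced chromatin, was likewise low in DNMT1-AID alone, at 35.6, 32.8 and 35.1 CPM in WT, 39.4, 38.4 and 38.8 in the UHRF1-AID line, 20.9, 20.9 and 21.3 in the DNMT1-AID line and 40.4, 37.6 and 34.4 in the double line (interaction 0.67 ± 0.13, edgeR adjusted p = 8.37e-04). For such genes a feature of the DNMT1-AID line and an effect of DNMT1 loss that the double line lacks cannot be told apart.

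The other 6 of these 8 genes were called lower than WT in both single lines, and in all but REEP1 the double line was the nearest of the 3 degron lines to WT by its fitted mean. DKK1, a secreted Wnt antagonist, was at 151, 155 and 143 CPM in WT, 42.3, 91 and 57.6 in the UHRF1-AID line, 85.2, 87 and 101 in the DNMT1-AID line and 126, 92.5 and 105 in the double line (interaction 1.47 ± 0.32, edgeR adjusted p = 0.00719). RIOX1, a histone demethylase and ribosomal oxygenase, was at 10.6, 9.47 and 8.93, 4.62, 6.64 and 4.42, 5.29, 6.12 and 5.6 and 6.2, 10.1 and 8.68 CPM (interaction 1.44 ± 0.30, edgeR adjusted p = 0.00223). SOCS2, a feedback inhibitor of cytokine signalling, was at 6.75, 7.72 and 7.66, 3.07, 4.71 and 4.0, 4.33, 4.98 and 3.66 and 5.52, 6.06 and 6.18 CPM (interaction 1.35 ± 0.29, edgeR adjusted p = 0.00401). The double line lay between WT and the single lines without overlap in SOCS2, overlapped DNMT1-AID in DKK1, and overlapped UHRF1-AID and WT in RIOX1. SLC27A2, a very-long-chain acyl-CoA synthetase, was at 19.9, 20.3 and 20.4, 13.7, 14.9 and 11.7, 13.2, 11.6 and 11.6 and 17.5, 15.4 and 16.2 CPM, again between WT and the single lines without overlap (interaction 1.02 ± 0.18, edgeR adjusted p = 2.90e-04). ATP8B4, a phospholipid flippase, and REEP1, an endoplasmic reticulum shaping protein, had interactions of 1.18 ± 0.23 and 1.03 ± 0.24 (edgeR adjusted p = 0.00103 and 0.0067). REEP1 was at 12, 13.1 and 12.2 CPM in WT, 8.02, 7.31 and 7.51 in the UHRF1-AID line, 5.26, 5.81 and 5.05 in the DNMT1-AID line and 6.4, 6.79 and 7.08 in the double line, which lay between the single lines without overlap.

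Of the 74 positive genes, 29 were called lower than WT in both single lines, 13 in UHRF1-AID only and 13 in DNMT1-AID only. In 16 neither single line was called against WT, and 11 of these were called higher than WT in the double line. Low values in the single lines raise the interaction by its definition, so these counts too are a description. RGPD2 was at 0.575, 0.965 and 0.584 CPM in WT, 0.939, 1.17 and 1.06 in the UHRF1-AID line, 0.499, 1.35 and 0.677 in the DNMT1-AID line and 3.88, 4.84 and 5.49 in the double line. RGPD2 belongs to a family of near-identical RANBP2-like copies and H2AB2 to one of near-identical H2A.B copies, so reads may be split among copies. GPR176, an orphan G protein-coupled receptor, was at 2.11, 2.24 and 2.47, 3.83, 5.09 and 4.03, 3.06, 3.98 and 3.25 and 13.3, 11.5 and 14.9 CPM (interaction 1.02 ± 0.25, edgeR adjusted p = 0.0137). NELL2, a secreted EGF-like protein of neurons, was at 0.767, 0.526 and 0.858, 1.55, 1.52 and 1.18, 0.699, 0.655 and 1.08 and 4.05, 4.51 and 5.05 CPM (interaction 1.52 ± 0.43, edgeR adjusted p = 0.0331). H2AB2 was at 1.34, 3.14 and 3.11 CPM in the double line and at no more than 0.316 in any other library. In these 4 genes the double line exceeded every other library, but their calls were not equally firm: of the 12 leave-one-out fits GPR176 was called in 11, NELL2 in 5, H2AB2 in 3 and RGPD2 in 1.

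DNA replication genes leaned above the sum. Of 46 replication and E2F target genes, 43 had an interaction above 0, whereas 59.1% of all genes were below 0, with a median of 0.23 against -0.06 over all genes, and 3 were called positive and 0 negative, against 0.48% and 3.58% of all genes. The list's median log2 change was -0.48 in the UHRF1-AID line, -0.16 in the DNMT1-AID line and -0.37 in the double line, so the double line lay between the single lines. POLE2, a subunit of DNA polymerase epsilon, was at 11.3, 10.5 and 11 CPM in WT, 7.37, 5.57 and 5.72 in the UHRF1-AID line, 7.75, 8.0 and 7.54 in the DNMT1-AID line and 9.79, 7.8 and 7.52 in the double line (interaction 0.93 ± 0.20, edgeR adjusted p = 0.00384). PRIM1, the primase catalytic subunit, and CCNE1, cyclin E1, had interactions of 0.57 ± 0.17 and 0.57 ± 0.16 (edgeR adjusted p = 0.0406 and 0.0328) and were called in 2 and 5 of the 12 leave-one-out fits. Of 43 mitotic genes 36 were below 0, against 59.1% of all genes, with a median of -0.14, and KIF20A (-0.43 ± 0.12) and BIRC5 (-0.49 ± 0.14) were called (edgeR adjusted p = 0.0242 and 0.0396), in 7 and 2 of the 12 leave-one-out fits. These 2 calls are near the 4.06% of all genes.

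Several lists gave no call in either direction by edgeR: 21 genes of the DNA methylation machinery (median 0.06), 43 cytosolic ribosomal proteins (-0.01), 29 MYC targets and ribosome biogenesis genes (-0.07), 33 oxidative phosphorylation genes (-0.09), 24 imprinted genes (0.07), 49 clustered protocadherins (0.28), 17 replication-dependent histones (0.06), 13 interferon ligands and receptors (0.13) and 11 endogenous retrovirus-derived genes (-0.14). The protocadherins lie in arrays of similar genes whose reads may be split. The 13 genes of the mitochondrial genome had a median interaction of 0.49 with 0 called, and of 0.12 without UHRF1-AID replicate 2, the library with the low mitochondrial share. Among other lists, 1 of 29 Polycomb genes (PHF1, -0.41 ± 0.11), 1 of 9 metallothioneins (MT1E, 0.50 ± 0.14) and, of 23 NF-kappa B targets, IER3 (0.44 ± 0.12), CX3CL1 and ICAM1 were called. IER3 and MT1E were positive and the rest negative. In the 12 leave-one-out fits PHF1 was called 5 times, MT1E 3, IER3 7 and CX3CL1 9, and 1 of 29 is near the 4.06% of all genes called.

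Among mesenchymal genes and genes hypermethylated in colorectal cancer, the double line overlapped single lines in some and exceeded them in others. Of 29 mesenchymal genes 5 were negative and 0 positive, against 3.58% and 0.48% of all genes, and 9 had under 10 reads in a group. The 5 were COL6A3, SPARC, THY1, CNN1 and SNAI1. SNAI1, a repressor of E-cadherin, was at 9.89, 8.86 and 10.1 CPM in WT, 16.8, 19.8 and 17.7 in the UHRF1-AID line, 16.5, 17.2 and 16.4 in the DNMT1-AID line and 15.4, 14.6 and 19.7 in the double line, with the 3 degron lines overlapping (interaction -0.93 ± 0.16, edgeR adjusted p = 2.01e-04). THY1, a surface glycoprotein that is also among the fibroblast markers, had no read in WT and was at 5.31, 5.28 and 5.45 CPM in the UHRF1-AID line, 0.499, 0.218 and 0.677 in the DNMT1-AID line and 10.7, 9.47 and 8.03 in the double line. Of 29 genes hypermethylated in colorectal cancer, UNC5C and GATA4 were negative and DKK1 positive, against 3.58% and 0.48% of all genes. UNC5C, a netrin receptor, was at 0.0767, 0 and 0, 4.33, 5.92 and 5.63, 1.2, 1.18 and 1.53 and 27.8, 20.4 and 23.9 CPM in WT, UHRF1-AID, DNMT1-AID and the double line. The double line of UNC5C, like that of THY1, lay above every single-line library. Of 21 intestinal epithelial genes, TFF3, a trefoil peptide, and CEACAM1 (-1.27 ± 0.36) were negative, against 3.58% of all genes. CEACAM1 was called in 3 of the 12 leave-one-out fits. Counts of 1 or 2 are not read as a result about these lists.

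Whether a gene falls short of the sum depended on the scale on which changes are added. On the linear scale, where the CPM gained in each single line are added in place of the log2 changes, 213 genes lay above the sum and 253 below it (1.38% and 1.64% of the genes tested, delta-method test with edgeR fitted errors, Benjamini-Hochberg adjusted p under 0.05). All 74 genes positive on the log2 scale were above 0 on the linear scale, 52 of them called. Of the 552 negative ones, 462 were below 0 and 90 above 0 on the linear scale, with 253 called below and 20 called above. A further 141 genes were called on the linear scale only, all of them above 0.

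UNC5C, for example, exceeded the linear sum by 17.5 ± 2.38 CPM, TKTL1 by 91 ± 17.1, PNMA5 by 56.9 ± 8.74, DCAF4L1 by 16 ± 4.39 and MMP13 by 4.55 ± 1.22 (± SE; edgeR delta-method adjusted p = 4.91e-05, 0.00362, 4.78e-04, 0.036 and 0.0326). CGAS exceeded it by 3.37 ± 0.80 CPM (edgeR delta-method adjusted p = 0.0151). Of these genes DCAF4L1 had the most WT reads, at 0.383, 0.219 and 0.378 CPM. COL6A3, TRIM55, BST2, DHX58, AHRR, SREBF1 and BBC3 fell short on both scales: COL6A3 was at -19.3 ± 3.91 CPM and AHRR at -50.1 ± 9.33 on the linear scale (edgeR delta-method adjusted p = 0.00435 and 0.0019). SDK2, TNFRSF1B, ICAM1, PSMB8 and OAS2 were not called on the linear scale, at 2.61 ± 4.09, -2.02 ± 4.51, 1.99 ± 1.83, 5.26 ± 5.27 and -0.482 ± 13.5 CPM, although each was called negative on the log2 scale (edgeR delta-method adjusted p = 0.822, 0.886, 0.653, 0.689 and 0.993).

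**Figure D4:**
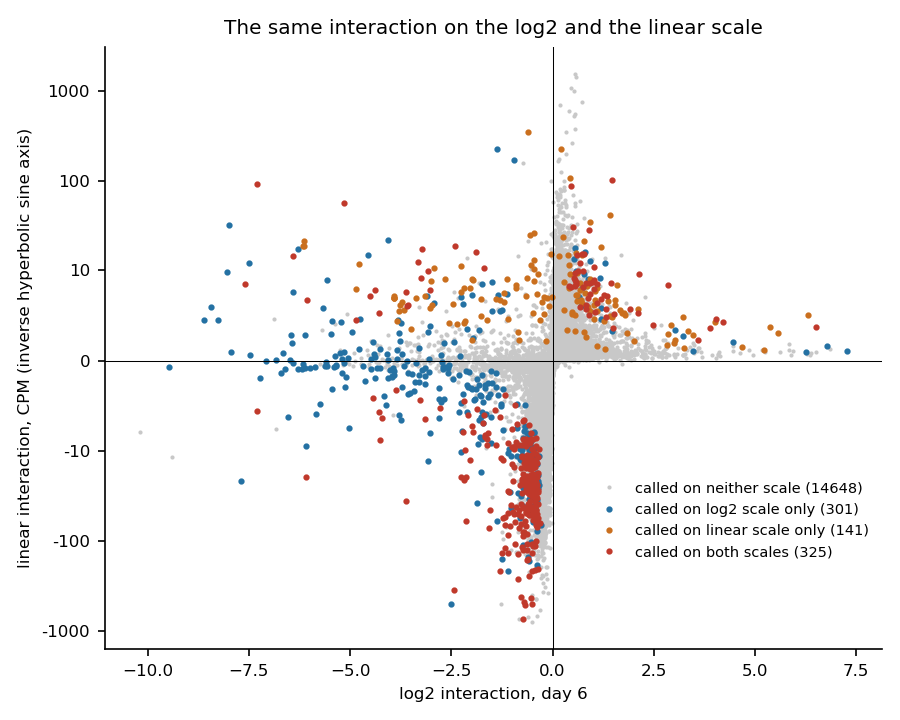
Each point is 1 of 15415 genes at day 6, with the log2 interaction on the x axis and the linear interaction in CPM on the y axis (inverse hyperbolic sine axis, labelled in CPM). The 325 genes called on both scales lie mostly in the lower left and upper right parts of the plot; the 141 called on the linear scale only lie above the horizontal line.

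Genes called on the day 6 libraries are chosen by their own shortfall. Genes were therefore also chosen on the separate day 2 libraries (above 1 in log2 and adjusted p under 0.05 against WT, edgeR). Of 117 genes higher in both single lines on day 2, 113 had a day 6 interaction below 0, or 96.6% against 59.1% of all genes. Of the 117, 85 were called negative and 0 positive, against 3.58% and 0.48% of all genes. Their day 6 medians were 4.25 in the UHRF1-AID line, 3.86 in the DNMT1-AID line, 8.23 for the sum and 5.11 in the double line. In the 68 of them with at least 10 reads in every group the median interaction was -1.88. On the linear scale 56 of the 117, or 47.9%, lay above the sum.

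Genes chosen in the double line on day 2 showed less. Of 1004 such genes, 731 had a day 6 interaction below 0, or 72.8% against 59.1% of all genes, and the median interaction was -0.88. Of the 422 that were higher in the double line and in neither single line on day 2, 246 were below 0, or 58.3%, near the share of all genes, with a median of -0.20; 301 of the 422, or 71.3%, lay above the linear sum against 46.8% of all genes. The choice of day mattered for the size: with genes chosen in the double line on day 8, 2614 in number, the day 6 median interaction was -0.21.

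The balance of positive and negative calls differed between days. On day 2, 747 genes had a positive and 269 a negative interaction (4.85% and 1.75% of the genes tested), on day 8, 566 and 1602 (3.67% and 10.4%). A test of the difference itself gave 35 genes with a higher and 574 with a lower interaction on day 6 than on day 2 (0.227% and 3.72%; edgeR). The number of higher genes ranged from 15 to 42 when 1 day 6 library was left out and fell to 15 without UHRF1-AID/DNMT1-AID replicate 1, to 16 and 19 without WT replicate 1 and 3, to 18 without UHRF1-AID replicate 3, to 22 and 20 without DNMT1-AID replicate 1 and 3, and to 21 without UHRF1-AID/DNMT1-AID replicate 2. Between day 6 and day 8, 0 genes were higher and 1 lower by edgeR (0.00649% of the genes tested; 651 and 625 at an unadjusted p under 0.05), and 18 and 7 by DESeq2. The day 2 direction was not firm: after a correction for GC content and length, 621 genes were positive and 791 negative on day 2.

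Of the 16 genes furthest from the sum on day 6, all but DKK1 had an interaction of the same sign on day 2. These 16 were chosen by their day 6 interaction, which favours a larger value on day 6 than on other days. COL6A3 was at -3.22 ± 0.69 on day 2 and -6.99 ± 0.46 on day 8, and NR5A1 at -7.34 ± 1.15 and -6.79 ± 0.43. TNFRSF1B had -1.37 ± 0.47 on day 2, -4.16 ± 0.32 at day 6 and -3.84 ± 0.32 at day 8, and the day 6 to day 2 difference was called (edgeR adjusted p = 0.00795). BST2 and IFITM1 also had lower interactions on day 6 than on day 2, when they were at -1.12 ± 0.27 and 0.10 ± 0.28 (edgeR adjusted p = 0.0356 and 0.0272). ADAMTS2 stood above the sum on all 3 days, at 2.26 ± 0.51, 2.86 ± 0.41 and 3.19 ± 0.43, as did MORC3, at 0.69 ± 0.13, 0.67 ± 0.13 and 0.78 ± 0.13. DKK1 was near the sum on day 2 (-0.17 ± 0.32) and above it on day 6 and day 8 (1.47 ± 0.32 and 1.59 ± 0.32; day 6 to day 2 edgeR adjusted p = 0.0392).

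**Figure D5:**
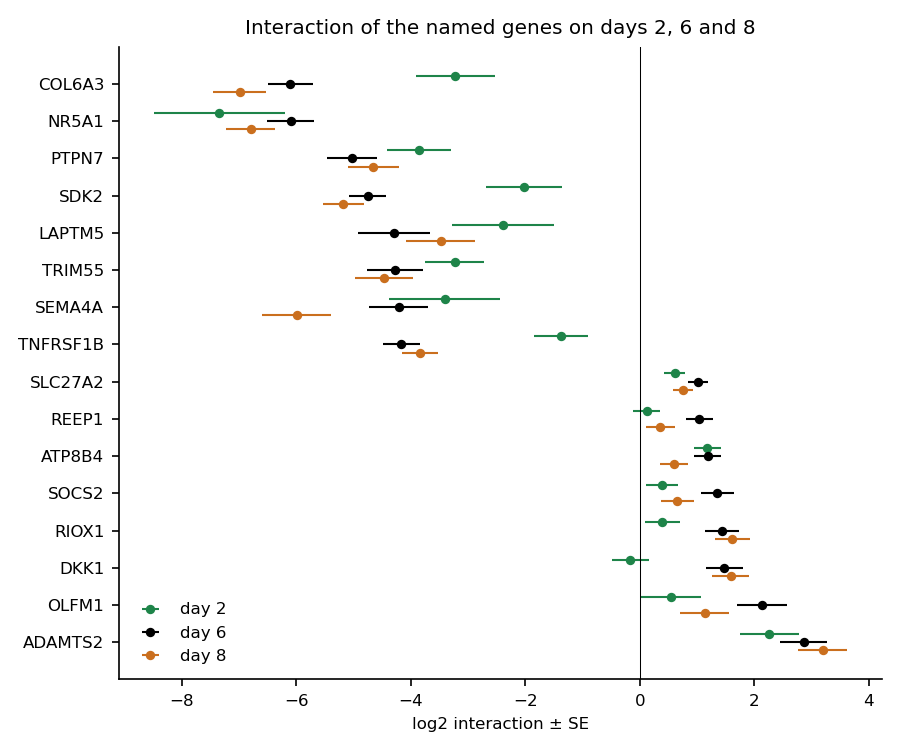
Log2 interaction ± SE of the 16 genes furthest from the sum on day 6, on days 2, 6 and 8 (3 libraries per line and day). The 8 upper genes lie left of 0 on every day, and of the lower 8 DKK1 and REEP1 have day 2 values near 0.

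By chromosome, the called genes were spread over the genome. The share called was 6.39% of 1174 genes on chromosome 19, 6.31% of 982 on chromosome 17, 6.30% of 397 on chromosome 22 and 5.73% of 593 on chromosome X, against 4.06% of all genes, and the median interaction of these chromosomes was -0.12, -0.10, -0.08 and -0.11. On chromosome 18, 1 of 191 genes was called.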

How the data were processed

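RNA of 36 HCT116 libraries (4 lines on days 2, 6 and 8, 3 libraries each) was sequenced after polyA selection. The deposited values are raw counts of reads per gene, which the authors made by trimming, alignment to hg38 with STAR and counting with featureCounts. The annotation release, strand setting and treatment of reads with several matches are not given in the sources used here, so overlapping and antisense genes and near-identical copies cannot be separated. Of 60648 gene identifiers in each file, 60462 were matched to a GENCODE annotation of the same build, and the 19942 protein-coding ones were kept. Those genes held 92.3% to 92.8% of the reads of each day 6 library.

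Counts were filtered with filterByExpr (minimum count 10), scaled by TMM and fitted by the edgeR quasi-likelihood model with 1 mean for each of 12 groups, leaving 15415 genes and 24 residual degrees of freedom. The interaction was a contrast of 4 day 6 means. Day 2 and day 8 libraries thus lend their spread to the test but not their levels. The SE of a log2 value was its absolute size divided by the square root of the F statistic of its test, and the 95% intervals used that SE. The log2 values include a prior count and the F statistic does not, so this SE is only approximate where reads are few. The linear version added group means in CPM from the same fit, with delta-method errors. R 4.3.3, edgeR 4.0.16, limma 3.58.1, DESeq2 1.42.0, Python 3.11.15 and pandas 2.3.3 were used, and both statistics were tested on simulated data. Gene starts and promoter sequences came from RefSeq tables, which held promoters for 11938 of the 15408 symbols tested.

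Gene lists and members were chosen with earlier results of these data known. Genes named were UHRF1 and DNMT1 and, in each direction, the 8 of largest interaction with at least 10 reads in each group, a mean of at least 5 CPM in 1 group and a call in all 12 leave-one-out fits. To these were added the genes of smallest p of each list, the 6 most abundant called genes in the double line with under 10 reads in a group, and genes the study discusses. The other called members of lists, MORC3, and the genes behind counts of 5 or fewer were named after their values were seen. A few genes that met these rules are not reported here, though the counts over lists include them. Alternatives changed the libraries in the fit, the test, the scaling, the filter, the genes tested, GC content and length, the scale of addition and the libraries left out. Those for day 2, day 8 and the differences between days were chosen after seeing the data.

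Replicate numbers recur in all groups. Same-numbered libraries of different lines on day 6 had correlations of their deviations from -0.02 to 0.11, with 2 of 18 above 0.1, so they were not taken as pairs.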

Additional observations from a re-analysis of the deposited data

Results flagged for a closer look

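In 9 of the genes named, the day 6 interaction differed from the day 2 interaction by a test of the difference itself (edgeR, 3 libraries per line and day). Over all genes tested, 0.227% were called higher and 3.72% lower on day 6 than on day 2. Most named genes were chosen by their day 6 interaction, and the test uses the same day 6 libraries. That choice favours a difference from day 2, so the 9 are a description. In 3 immune genes it was lower on day 6: the difference was -2.79 for TNFRSF1B, -1.49 for IFITM1 and -1.30 for BST2 in log2 (edgeR adjusted p = 0.00795, 0.0272 and 0.0356). It was lower by smaller amounts for SREBF1, of lipid metabolism, with a difference of -0.95 (edgeR adjusted p = 0.0214), and for SNAI1, with -0.88 (edgeR adjusted p = 0.0236). SREBF1 and SNAI1 had day 2 interactions of 0.24 and -0.05 and day 6 interactions of -0.72 and -0.93.

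In the other 4 it was higher on day 6. NELL2 differed by 2.51, DKK1 by 1.64, GPR176 by 1.29 and the metallothionein gene MT1E by 0.75 (edgeR adjusted p = 0.0353, 0.0392, 0.0390 and 0.0191). All 4 had day 2 interactions below 0, from -0.99 for NELL2 to -0.17 for DKK1, and day 6 interactions above 0, from 0.50 for MT1E to 1.52 for NELL2.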

How the results depend on the processing

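The direction of imbalance, more negative than positive genes on day 6, was kept under each alternative run, but its size was not. Positive genes numbered 74 and negative genes 552. The 12 day 6 libraries alone gave 144 positive genes, DESeq2 179, limma-voom with sample weights 478, a test against a 1.5-fold interaction (glmTreat) 8, library size only 120, a GC content and length correction 127 and the linear scale 213. Negative genes numbered 1538 by limma-voom, 171 by glmTreat, 328 by library size only and 253 on the linear scale. Leaving out 1 library gave 37 to 97 positive and 351 to 591 negative genes. Above 1 in log2, positive genes numbered 61 with the 12 libraries, 68 by DESeq2, 180 by limma-voom, 8 by glmTreat and 21 to 48 with 1 library left out, against 38. Below -1, negative genes numbered 419 by limma-voom, 170 by glmTreat and 206 to 271 with 1 library left out, against 278. Scaling by library size moved the median of all genes from -0.06 to 0.04.

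Genes with a higher interaction on day 6 than on day 2 numbered 62 by DESeq2, 57 by library size, 98 after the GC correction and 15 to 42 with 1 library left out, and those with a lower one 295 by library size, 324 after the GC correction and 403 to 639 with 1 left out. Against day 8, DESeq2 gave 18 higher and 7 lower genes, the GC correction 1 and 2, and leaving out 1 library 0 to 1 and 0 to 2. Negative genes on day 2 numbered 175 under median-of-ratios scaling and 791 after the GC correction, and positive genes on day 8 numbered 893 by DESeq2 and 891 after the GC correction. The day 6 median of genes higher in the double line on day 2 was -0.82 under library size and -0.21 with genes chosen on day 8, against -0.88. The cause was not tested.

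On the linear scale 22 of 86 named genes had the opposite sign, in CPM above the sum: IFITM1 222, TKTL1 91.0, PNMA5 56.9, MAGEA4 32.3, UNC5C 17.5, DCAF4L1 16, IRF7 15.4, RAB34 15, PSMB8 5.26, APOBEC3G 4.97, MMP13 4.55, TRIM22 3.99, THY1 3.59, SDK2 2.61, MAGEA9 2.47, MAGEA9B 2.46, ICAM1 1.99, IGFBP4 1.75, GATA4 1.49, IL32 1.24, CCL5 0.566 and IFNL2 0.134. Of these 22, only UNC5C, PNMA5, TKTL1, MMP13 and DCAF4L1 were called on the linear scale. The others could not be separated from the linear sum, IFITM1 at 222 ± 185 CPM among them (edgeR delta-method adjusted p = 0.612). On the log2 scale 6 genes changed sign, none of them called: CCL5 and IRF7 were at 0.14 and 0.0011 by limma-voom, and all 6 changed sign with 1 library left out. Over those fits CCL5 ran from -0.62 to 0.069, IRF7 from -0.21 to 0.038 and ISG15 from -0.32 to 0.045, each above 0 without UHRF1-AID replicate 2 alone. CGAS ran from -0.15 to 0.79, below 0 without WT replicate 1 (-0.077) or UHRF1-AID replicate 3, IFNL2 from -0.85 to 0.053, above 0 without WT replicate 3 (0.016) or UHRF1-AID/DNMT1-AID replicate 3, and UHRF1 from -0.51 to 0.020, above 0 without UHRF1-AID/DNMT1-AID replicate 1.

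With the replicate number as a block, 80 genes were positive, 563 negative and 1 higher on day 6 than on day 8, and 3 of the 86 named genes lost their call, the numbers not being taken as pairs. Without the filter on low counts all 86 kept their sign and side of the threshold, and under median-of-ratios scaling 82 did. Depth limits the genes near 0 reads in WT, whose product of fold changes rests on few reads.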
